A study of Mus musculus with 4 samples.

Results

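Macrophages that were activated with LPS and IFNγ in the presence of a Ninj1 peptide were compared with macrophages that were never activated, to describe what of the activated state was present with the peptide. The comparison was chosen by group: both libraries of peptide-treated classically activated macrophages against the single library of unactivated macrophages, which is 3 of the 4 libraries of the series. Values were read for the 32400 of 32617 genes in the table that carry a mouse gene symbol. The remaining library, classically activated macrophages without peptide (CAM), is given beside these values as a reference. All cells came from pooled blood of mice aged 10 to 16 weeks (60 mice, 1 ml from each). CD11b-selected monocytes were grown for 6 or 7 days in medium with serum and 30 ng/ml M-CSF, the growth factor that turns monocytes into macrophages, so every group carries M-CSF.

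The unactivated group, called M-CSF macrophages here, is labelled strain C57BL/6J and received no further agent. CAM, also labelled C57BL/6J, received LPS (500 ng/ml) plus IFNγ (20 ng/ml). Peptide-treated CAM received the same stimulus together with mML56, a peptide of Ninj1 residues 1 to 56 made to act like soluble Ninj1; the labels give no dose, time or control peptide. The growth description names C57BL/6J mice for all samples, but both peptide libraries carry the strain label C57BL/7J, so a difference that this label may mark and a difference between the treatments cannot be told apart. Whether the libraries stem from separate cultures is not stated in the labels. All p-values therefore measure only the spread between 2 peptide libraries, which may be technical. The lone M-CSF library and the lone CAM library were assumed to vary like them, so p-values against CAM carry the same limit.

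LPS, from the outer membrane of Gram-negative bacteria, is sensed by Toll-like receptor 4 and drives NF-kB and a wave of interferon β. IFNγ induces IRF1, guanylate-binding proteins, antigen presentation and, jointly with LPS, inducible nitric oxide synthase. Macrophages in this state raise glycolysis and lose mannose and scavenger receptors that mark resting or IL-4-exposed cells. Ninj1 mediates adhesion between cells and breaks the cell membrane open when cells die by lysis, and a fragment shed from its extracellular end is the soluble form that the peptide copies.

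Library totals in estimated counts were 12414713 for M-CSF, 10334062 for CAM, 12842750 for peptide library 1 and 12119505 for peptide library 2. The peptide libraries resembled each other: among 7411 genes with a mean of 10 CPM (counts scaled to a common library size) or more, 93 (1.25%) differed by 2-fold or more, as against 2523 (34.0%) between peptide library 1 and M-CSF and 2379 (32.1%) between peptide library 2 and M-CSF. Macrophage markers were present in both peptide libraries, but most members of the macrophage identity list fell. Against M-CSF 13 of 23 tested members fell and 7 rose, beside 19.0% and 22.1% of all tested genes. Adgre1 and Itgam, given here, stood above M-CSF. Adgre1 (F4/80) stood at 71.7 CPM in M-CSF, 172 in CAM, 253 in peptide library 1 and 202 in peptide library 2, and Itgam, the CD11b chain on which the monocytes were selected, at 261, 990.4, 682 and 604 CPM in the same order. Markers of other blood cells gave mixed values. Cd3e, Ly6g, S100a9, Hba-a1 and Fcer1a were listed at 0 in both peptide libraries, which need not mean absence in a table with failed estimates. Cd3d stood at 2.49 and 3.16 CPM. Of 5 tested neutrophil markers 2, Csf3r and S100a8, rose over M-CSF, beside 22.1% of all tested genes. On library size alone 1 of the 5 rose and 1 fell, and 7 further neutrophil markers were not tested. Sums over the marker lists are given at the end.

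The 4 genes used as markers of the state each stood far from the M-CSF level in both peptide libraries, in the direction seen in CAM. Nos2, the inducible nitric oxide synthase, had 0.194 CPM in M-CSF (3 estimated counts), 15935 in CAM and 6723 and 5880.1 with the peptide. The ratio of the peptide libraries to M-CSF was 32426, with a 95% interval of 11096 to 157239 that covers counting error only. Against CAM the peptide libraries were 2.53-fold lower (adjusted p = 8.77e-04). Saa3, an acute-phase serum amyloid made by activated macrophages, had 7.90 CPM in M-CSF, 1273 in CAM and 7229 and 6391 with the peptide, so both peptide libraries lay above CAM as well as above M-CSF. Its log2 fold change over M-CSF was 9.75 (SE 0.378, adjusted p = 7.48e-10), and it was 5.35-fold higher than in CAM (adjusted p = 2.05e-05). Mrc1, the mannose receptor of resting macrophages, had 2514 CPM in M-CSF, 36.0 in CAM and 9.03 and 4.90 with the peptide. That is a log2 fold change of -8.50 (SE 0.276, adjusted p = 4.66e-10), and the peptide libraries were also 5.17-fold below CAM (adjusted p = 3.99e-05). Cd163, the haemoglobin scavenger receptor, had 71.0, 2.92, 0.258 and 0.499 CPM in the same order, a log2 fold change of -7.51 (SE 0.333, adjusted p = 1.78e-09). No marker's peptide values overlapped M-CSF, and all 4 also differed from CAM, Nos2 downward and the other 3 away from M-CSF. On the plain column totals, without rescaling for composition, Nos2 was 0.242 CPM in M-CSF and 6089 and 5839 with the peptide, and Mrc1 was 3126 against 8.18 and 4.87.

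**Figure D1:**
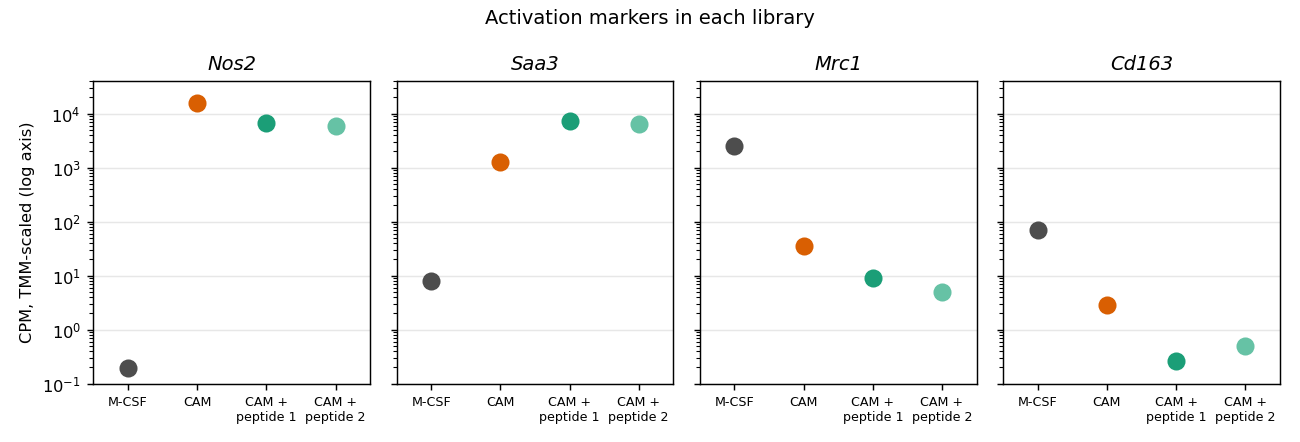
CPM (vertical, log axis) of Nos2, Saa3, Mrc1 and Cd163 in each of the 4 libraries, 1 point per library. Nos2 and Saa3 sit above the M-CSF point in both peptide libraries, Mrc1 and Cd163 below it, and the Saa3 peptide points (7229 and 6391 CPM) lie above CAM (1273 CPM).

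Across the genome, 14104 genes had enough counts to test with edgeR's quasi-likelihood F test, and p-values were adjusted over all of them by the Benjamini-Hochberg method with a threshold of 0.05. With the peptide 5804 genes (41.2%) differed from M-CSF, 3124 higher (22.1%) and 2680 lower (19.0%). Both peptide libraries lay on the same side of M-CSF for 5798 of them. By size alone, with no test, 5430 genes (38.5%) lay at least 2-fold from M-CSF, 18.3% higher and 20.2% lower. At least 8-fold differences were called for 626 genes upward and 480 downward, and the median log2 fold change of all tested genes was -0.08. The split of higher and lower calls differed between settings. DESeq2, which changes the test as well as the scaling and gave no adjusted p for 1094 genes, called 2108 higher and 1144 lower. On library size alone 2065 were higher and 4153 lower, and the median log2 fold change of all tested genes was -0.46, a shift of the median by -0.39. The same fit called 6269 genes (44.4%) between CAM and M-CSF and 5320 (37.7%) between peptide-treated CAM and CAM. These comparisons share libraries with the one described, so their values stand beside it for single genes and no overlap between them was computed.

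**Figure D2:**
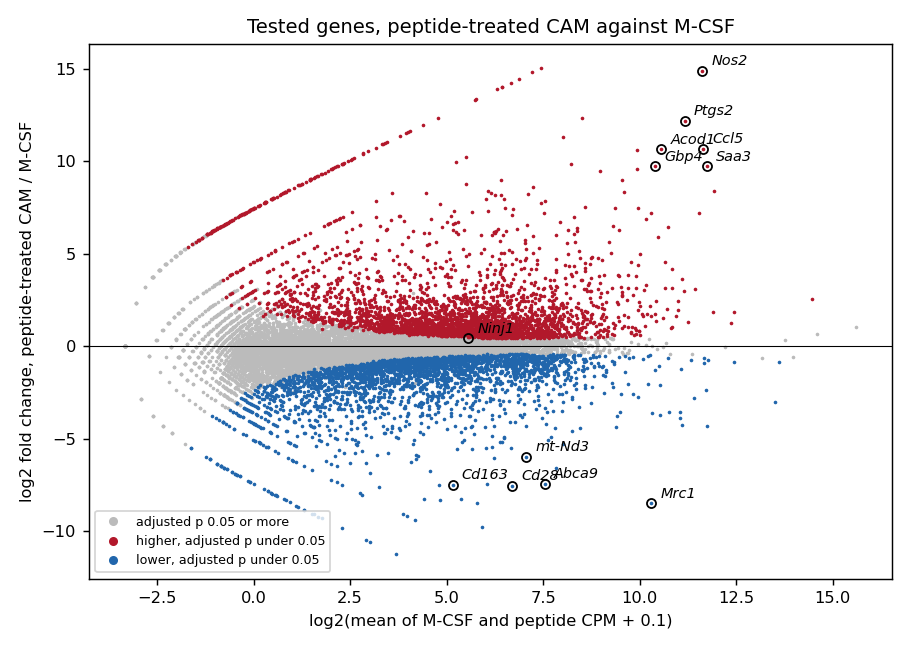
Each point is one tested gene; the horizontal axis is its level, log2 of the mean of M-CSF and peptide CPM plus 0.1, and the vertical axis its log2 fold change in peptide-treated CAM over M-CSF. Red and blue points passed the threshold (3124 higher, 2680 lower); the straight lines of points at the upper and lower left are genes with 0 or few counts in one group, whose fitted fold depends on the prior count.

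The 10 largest changes in each direction are given among called genes whose higher group reached 10 CPM and which had at least 3 counts in every library of the lower group, leaving out numbered clone and gene models. Beside Nos2 and Saa3, those above M-CSF included inflammatory enzymes, chemokines and interferon-induced proteins. Ptgs2, the inducible cyclooxygenase COX-2, had 0.972 CPM in M-CSF, 17756 in CAM and 5019 and 4214 with the peptide, a log2 fold change of 12.20 (SE 0.494, adjusted p = 9.32e-10). Acod1, which makes itaconate from a citric acid cycle intermediate, had 1.88, 9286, 2963 and 3076 CPM (log2 fold change 10.64, SE 0.405, adjusted p = 6.92e-10). Both genes were lower than in CAM, by 3.85-fold for Ptgs2 (adjusted p = 6.28e-05) and 3.08-fold for Acod1 (adjusted p = 9.83e-05). Ccl5 (RANTES), an attractant of T cells and monocytes, had 3.89 CPM in M-CSF, 2661 in CAM and 6619 and 6249.9 with the peptide. It was thus above CAM by 2.42-fold (adjusted p = 0.00108) and above M-CSF by a log2 fold change of 10.69 (SE 0.395, adjusted p = 6.82e-10). Tgtp1, an IFNγ-induced GTPase that acts on intracellular pathogens, had 1.23, 1140.0, 1875 and 1999 CPM (log2 fold change 10.61), although its near-identical neighbour Tgtp2 may share reads with it. Ly6a (Sca-1), an interferon-inducible surface protein, had 0.648 CPM in M-CSF and 418 and 778 with the peptide, the widest gap between the peptide libraries among these genes. Gbp4, Clic5 (an intracellular chloride channel protein) and Cxcl9 (an IFNγ-induced attractant of T cells) completed these 10, with log2 fold changes of 9.73, 9.58 and 9.45. Clic5 had 1987 and 1908 CPM with the peptide and 1600.2 CPM in CAM, a difference that missed the threshold (log2 difference 0.28, adjusted p = 0.264).

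Under the same limits, the 10 genes below M-CSF held Mrc1, Cd163, other membrane proteins and lipid enzymes. Cd28, the costimulatory receptor known from T cells, had 207 CPM in M-CSF, 11.6 in CAM and 1.46 and 0.748 with the peptide (log2 fold change -7.54, SE 0.256, adjusted p = 4.80e-10). The T cell markers Cd3e, Cd3g and Trbc2 were listed at 0 in all 4 libraries, which may reflect failed estimates, and Cd3d stood at 4.34, 4.22, 2.49 and 3.16 CPM. Summed over the T and NK cell list, CPM was 19.8 in M-CSF, 11.7 in CAM and 7.22 and 7.56 with the peptide. Whether T cells had a part in the Cd28 values was not tested. Abca9, an ABC-type transporter, had 370.0 CPM in M-CSF and 2.84 and 1.41 with the peptide (log2 fold change -7.44) and 3.25 in CAM. Cyp27a1, the sterol 27-hydroxylase that makes an LXR ligand, had 148 CPM in M-CSF, 1.19 in CAM and 3.35 and 1.08 with the peptide (log2 fold change -6.06, SE 0.337, adjusted p = 1.18e-08). Cd28 was also lower than in CAM (log2 difference -3.38, adjusted p = 6.91e-06), while Abca9 and Cyp27a1 did not differ from CAM past the threshold (adjusted p = 0.228 and 0.266). Cnrip1, a cannabinoid receptor-interacting protein (130.4 to 1.03 and 0.415 CPM), Adam19, a membrane metalloprotease (47.0 to 0.258 and 0.582 CPM), Slc9a9, an endosomal sodium-proton exchanger (455 to 6.10 and 3.41 CPM), and Ptgs1, the constitutive cyclooxygenase COX-1 (36.3 to 0.774 and 0.249 CPM), fell by log2 7.48, 6.77, 6.58 and 6.13. The mitochondrially encoded mt-Nd3 closed the list with a log2 fold change of -5.98 and is described with its neighbours further on.

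Several genes were high in one group and listed at 0 in the other. In M-CSF, 165 of the called genes were listed at 0, and 54 were listed at 0 in both peptide libraries. Some zeros may come from estimates that failed, since Mcl1, a survival gene that most cells express, was listed at 0 in M-CSF and Eif1, a translation initiation factor, at 0 in CAM; no fold is given for such genes. Upp1, a uridine phosphorylase of nucleotide salvage, was listed at 0 in M-CSF and had 320.3 CPM in CAM and 341 and 352 with the peptide. Slc6a19, a neutral amino acid transporter known from gut and kidney, was likewise listed at 0 in M-CSF, had 75.0 CPM in CAM and 237 and 231 with the peptide, and was higher than in CAM by 3.12-fold (adjusted p = 2.55e-05). Serpina3f (178 and 169 CPM) and the guanylate-binding protein Gbp2b (177 and 139 CPM) were also listed at 0 in M-CSF. In the other direction, the organic anion transporter Slco2b1 (25.6 CPM in M-CSF), Angptl4, an inhibitor of lipoprotein lipase (16.1 CPM), the lipoprotein component Apoc2 (14.9 CPM), Shisa9 (9.52 CPM) and Alg11 (6.61 CPM) were listed at 0 in both peptide libraries.

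Promoter sequences of 3 of these genes are shown because they carry the letters by which the interferon-stimulated response element (ISRE core: TTTC, any 2 bases, TTTC) and the IFNγ-activated sequence (GAS, TTCNNNGAA) are usually described. The 250 bases before the annotated start are printed 5′ to 3′ on the gene's strand, from RefSeq on GRCm38.p6, and capitals mark the matches on either strand. Tgtp1 lies at chr11:48992247-48992496 (minus strand) and holds a GAS match that begins 88 bases before the start and an ISRE core match, read on the other strand, that begins 77 bases before it; the matches do not overlap. Gbp2b lies at chr3:142594597-142594846 (plus strand), with an ISRE core match that begins 137 bases before the start. Saa3 lies at chr7:46715677-46715926 (minus strand), with an ISRE core match on the other strand 125 bases before the start.
Tgtp1: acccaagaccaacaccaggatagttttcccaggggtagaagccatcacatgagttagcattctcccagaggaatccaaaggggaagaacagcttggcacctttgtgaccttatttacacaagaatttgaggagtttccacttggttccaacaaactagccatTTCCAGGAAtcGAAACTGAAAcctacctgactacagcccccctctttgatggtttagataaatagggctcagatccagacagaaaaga
Gbp2b: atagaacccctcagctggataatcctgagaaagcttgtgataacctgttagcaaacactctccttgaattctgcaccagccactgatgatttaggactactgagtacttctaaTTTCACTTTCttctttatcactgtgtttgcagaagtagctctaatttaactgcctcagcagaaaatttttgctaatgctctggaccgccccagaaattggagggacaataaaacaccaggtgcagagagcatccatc
Saa3: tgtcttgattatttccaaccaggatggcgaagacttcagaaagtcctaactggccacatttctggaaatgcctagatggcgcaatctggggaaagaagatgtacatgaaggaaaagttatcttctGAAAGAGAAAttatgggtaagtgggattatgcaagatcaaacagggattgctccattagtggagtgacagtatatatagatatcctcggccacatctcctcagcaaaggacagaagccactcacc

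Promoters were counted from 250 bases before to 50 after the start, and those on chr18 were left out of all promoter counts. An ISRE core match on either strand was present in 3.44% of the 32851 remaining RefSeq promoters. For the sets that follow the unit was the gene, and a gene counted if any of its promoters held a match. These shares are therefore on another measure than the 3.44%. Of 14011 tested symbols 10154 had a promoter entry, and 4.09% of these held an ISRE core. Of 617 genes called at least 8-fold higher with the peptide 413 had an entry, and 49 (11.9%) held one. Of 479 genes called at least 8-fold lower 329 had an entry, and 10 (3.04%) held one. GAS matches were in 8.51% of tested genes with an entry, in 46 of the 413 (11.1%) and in 21 of the 329 (6.38%). A match to the κB letters (GGG, any 2 bases, TTTCC) was in 2.07% of tested genes with an entry, in 16 of the 413 (3.87%) and in 13 of the 329 (3.95%). Nos2 had no entry in the promoter table. A match of letters is a description of the sequence and not a binding site.

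The gene groups below are described by how many tested members rose or fell against M-CSF, to be read against the 22.1% of all tested genes that rose and the 19.0% that fell. In the list of type I interferon-stimulated genes, 39 of 40 rose and none fell, with a median log2 fold change of 2.95 against -0.08 for all tested genes. Irf7, the transcription factor that amplifies interferon production, had 13.7 CPM in M-CSF, 579 in CAM and 1278 and 1213 with the peptide, so the peptide libraries were above both other groups (log2 fold change 6.51 over M-CSF, adjusted p = 8.97e-10; 1.10 over CAM, adjusted p = 6.28e-04). Isg15, a ubiquitin-like modifier, had 4.60, 404, 495 and 479 CPM and did not differ from CAM past the threshold (log2 difference 0.27, adjusted p = 0.224). Rsad2 (viperin), which makes a chain-terminating nucleotide that stops viral polymerases, had 46.7, 6307, 2614 and 2956 CPM. It was thus well above M-CSF (log2 fold change 5.90) and 1.18 log2 units below CAM (adjusted p = 8.28e-04). The one member that did not pass was Oas2, an oligoadenylate synthetase, at 5.64 CPM in M-CSF and 3.18 and 7.15 with the peptide (log2 fold change -0.12, adjusted p = 0.851). Ifnb1, the interferon β gene itself, was listed at 0 in M-CSF and stood at 0.866 CPM in CAM and 3.61 and 3.07 with the peptide. Of the 30 genes in this list with a promoter entry 15 held an ISRE core.

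IFNγ-induced GTPases and regulators moved in the same direction: 26 of 28 rose, 1 fell and the median log2 fold change was 5.61 (5.59 with the 3 members listed at 0 in M-CSF set at the bound that 3 counts give). Gbp2, a guanylate-binding protein that coats vacuoles of intracellular bacteria, had 23.1 CPM in M-CSF, 5189 in CAM and 8023 and 7563 with the peptide. Gbp10 had 0.130, 244, 693 and 758 CPM, a ratio to M-CSF of 5599 with a counting interval of 1550 to 46230 from 2 M-CSF counts. Guanylate-binding proteins are a family of close paralogs, so reads may be split among them. Irf1, a transcription factor that IFNγ induces, had 64.1 CPM in M-CSF, 925 in CAM and 2116 and 1895 with the peptide, and was higher than in CAM by 1.12 log2 units (adjusted p = 9.62e-04). Socs1, the inhibitor of the receptor's kinases (0.324, 143, 181 and 156 CPM), did not differ from CAM past the threshold (log2 difference 0.24, adjusted p = 0.289). The member that fell was Ifngr1, a receptor chain, from 7.51 to 2.06 and 3.32 CPM (log2 fold change -1.47, adjusted p = 0.0166), whereas with DESeq2 no member of the list fell. Of 18 genes in this list with a promoter entry 11 held an ISRE core and 8 a GAS match.

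All 22 tested members of MHC class I presentation rose, with a median log2 fold change of 2.70. Against CAM, where 20.6% of all tested genes were higher and 17.1% lower, 16 of the 22 were higher with the peptide and 1 was lower. H2-K1, a classical class I heavy chain, had 529 CPM in M-CSF, 273 in CAM and 1510.5 and 1810.3 with the peptide, so that CAM lay below M-CSF and both peptide libraries above it (log2 fold change over M-CSF 1.65, adjusted p = 2.91e-05). H2-Q6 (7.32, 217, 1257 and 1370.0 CPM), H2-Q7 (29.7, 121, 530.2 and 673 CPM) and H2-T22 (27.0, 103, 574 and 517 CPM) rose most, by log2 7.49, 4.34 and 4.33. Class I heavy chains are near-identical in sequence, so the value of any single chain is uncertain. Peptide transport and loading genes rose over M-CSF too. Tap1, a subunit of the peptide transporter, had 69.0, 732, 1016 and 994 CPM, where the difference from CAM missed the threshold (adjusted p = 0.0598), and Tapbpl, a loading factor, had 24.4, 163, 422 and 436 CPM and was higher than in CAM (adjusted p = 7.27e-05). The exception against CAM was Nlrc5, the transactivator of class I genes, at 5.83 CPM in M-CSF, 60.5 in CAM and 17.7 and 34.6 with the peptide (log2 difference from CAM -1.21, adjusted p = 0.00713).

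MHC class II genes also stood above M-CSF, 8 of 10 tested members rising with a median of 2.12, and 5 of the 10 were lower than in CAM and 4 higher. H2-Ab1, a class II β chain, had 15.7 CPM in M-CSF, 397 in CAM and 171 and 146 with the peptide (log2 fold change over M-CSF 3.33, adjusted p = 3.88e-08; against CAM -1.33, adjusted p = 6.65e-05). Cd74, the invariant chain, had 20.5, 510.5, 135 and 138 CPM, and Ciita, the class II transactivator, 6.54, 81.8, 28.0 and 29.0 CPM, both below CAM past the threshold. H2-Oa, which restrains peptide loading, was listed at 0 in M-CSF and had 2.27 CPM in CAM and 12.3 and 16.0 with the peptide. Among costimulatory and checkpoint ligands 9 of 13 rose and 2 fell. Cd274 (PD-L1), the ligand of the T cell checkpoint receptor PD-1, had 40.0 CPM in M-CSF, 5775 in CAM and 6396 and 5317 with the peptide, a log2 fold change of 7.19 (adjusted p = 3.32e-09). Its log2 difference from CAM was 0.02 (adjusted p = 0.957). Cd40 (1.49, 225, 191 and 220.3 CPM) and Slamf8 (4.73, 338, 313 and 282 CPM) also rose over M-CSF, and their differences from CAM missed the threshold (adjusted p = 0.562 and 0.400). The members that fell were Vsir (VISTA), an inhibitory ligand of resting myeloid cells, from 152 to 65.5 and 52.7 CPM, and Cd48, from 188 to 115 and 112 CPM.

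**Figure D3:**
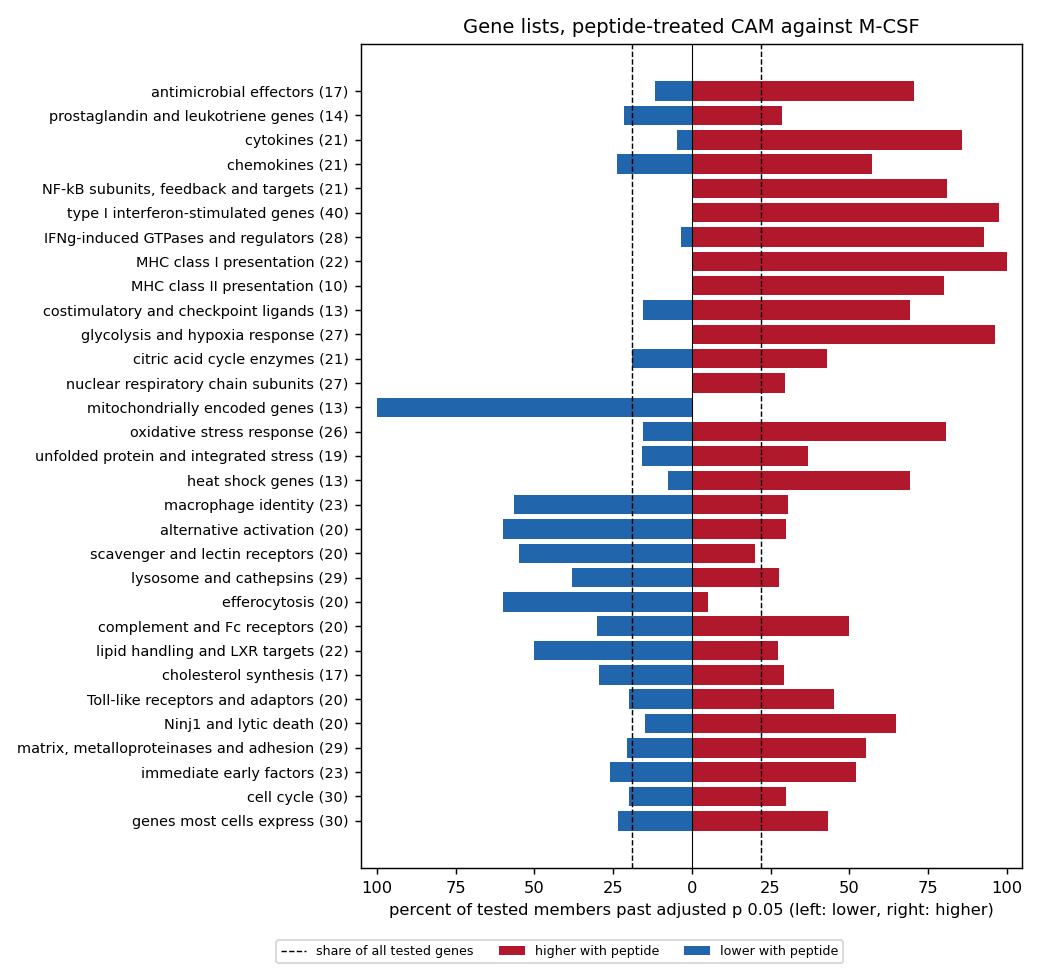
Percent of the tested members of each gene list that passed the threshold, higher with the peptide to the right (red) and lower to the left (blue); numbers of tested members stand in parentheses and dashed lines mark the share of all tested genes (22.1% higher, 19.0% lower). Interferon, class I, glycolysis and cytokine lists extend far to the right, and the mitochondrially encoded genes (13 of 13 lower) lie wholly to the left.

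Cytokine genes rose against M-CSF in 18 of 21 cases and 1 fell, while with DESeq2 14 rose and 1 fell. In the edgeR fit the median log2 fold change was 5.38, and 2.32 with the 6 members listed at 0 in M-CSF set at the bound that 3 counts give. Il1rn, the natural antagonist of the IL-1 receptor, had 17.9 CPM in M-CSF, 2524 in CAM and 1346 and 1446 with the peptide (log2 fold change 6.28, adjusted p = 1.61e-09). Il1a, the agonist IL-1α, had 0.842, 1171, 126 and 141 CPM, far above M-CSF (log2 fold change 7.29) yet 3.13 log2 units below CAM (adjusted p = 1.42e-07). Antagonist and agonist therefore stood at different distances from CAM, with Il1rn 0.85 log2 units below it (adjusted p = 0.00318). Il6, the pyrogenic and acute-phase cytokine, had 0.0648 CPM in M-CSF (1 count), 91.7 in CAM and 7.82 and 6.90 with the peptide, a ratio to M-CSF of 113.6 with a counting interval of 20.4 to 4488. Il12b, the shared p40 subunit of IL-12 and IL-23, was listed at 0 in M-CSF and had 719 CPM in CAM and 5.76 and 3.41 with the peptide, 7.29 log2 units below CAM (adjusted p = 2.66e-09). Il27, the p28 chain of IL-27 (0.972, 54.0, 44.2 and 43.6 CPM), and its partner Ebi3 (59.9, 101.3, 204 and 202 CPM) rose over M-CSF; Ebi3 was 1.00 log2 unit above CAM (adjusted p = 6.12e-04), and the difference of Il27 from CAM missed the threshold (adjusted p = 0.246). Inhba, the activin A subunit, had 0.0648, 71.9, 18.1 and 29.2 CPM. The member that fell was Tgfb1, from 476 to 208 and 191 CPM (log2 fold change -1.25, adjusted p = 3.04e-05), and Tnf was listed at 0 in all 4 libraries.

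Chemokines divided into genes that stayed high and genes that stood near M-CSF. In all, 12 of 21 rose and 5 fell (median log2 fold change 1.89), while with DESeq2 10 rose and 3 fell. The monocyte attractants Ccl2 (4.86 CPM in M-CSF, 883 in CAM, 572 and 671 with the peptide) and Ccl7 (2.46, 633, 347 and 378 CPM) and the CXCR3 ligand Cxcl11 (0.583, 257, 147 and 190.1 CPM) were all far above M-CSF in both peptide libraries. Ccl3, Ccl4 and Cxcl3 were chosen as the members nearest to M-CSF, so their differences from it are given without a test. Ccl3 (MIP-1α) had 50.4 CPM in M-CSF, 527 in CAM and 64.0 and 65.1 with the peptide (log2 fold change 0.36). Ccl4 (MIP-1β) had 12.5, 86.7, 16.3 and 17.3 CPM (log2 fold change 0.43). Cxcl3, a neutrophil attractant, had 1.30, 10.6, 1.29 and 1.58 CPM (log2 fold change 0.15), whereas the related Cxcl2 had 1.62, 203, 7.14 and 8.31 CPM and was still above M-CSF (log2 fold change 2.25, adjusted p = 2.64e-05). For Ccl3, Ccl4 and Cxcl3 the peptide libraries lay 2.37 to 3.03 log2 units below CAM. Ccl6 (174 to 6.19 and 5.15 CPM), Ccl9 (404 to 92.7 and 87.1 CPM) and Pf4 (74.2 to 11.8 and 8.64 CPM), chemokines that were high in M-CSF, fell.

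NF-kB genes rose in 17 of 21 cases and none fell (median log2 fold change 2.61). Feedback inhibitors were among the strongest: Tnfaip3 (A20), a ubiquitin-editing enzyme that shuts the pathway off, had 10.0 CPM in M-CSF, 409.8 in CAM and 239.9 and 260.2 with the peptide, and Nfkbia (IκBα) had 40.0, 485, 543 and 586 CPM. Nfkb2, a subunit of the noncanonical pathway, had 17.4, 28.2, 108 and 103 CPM and exceeded CAM by 1.90 log2 units (adjusted p = 1.52e-05). The canonical subunit Nfkb1 had 106, 431, 157 and 132 CPM and did not differ from M-CSF past the threshold (log2 fold change 0.45, adjusted p = 0.0566), nor did Rel at 103, 247, 126 and 117 CPM (adjusted p = 0.260). Immediate early factors rose in 12 of 23 cases and fell in 6, or in 2 with DESeq2: Dusp1, a MAP kinase phosphatase, went from 12.4 to 334 and 289 CPM and Zfp36, which degrades cytokine messages, from 139 to 743 and 704, while Egr1 went from 24.6 to 6.28 and 5.48. Among Toll-like receptors and adaptors 9 of 20 rose and 4 fell, and on library size alone the list's median moved from 0.34 to -0.04. Tlr3 went from 12.8 to 66.1 and 55.3 CPM and the adaptor Myd88 from 56.4 to 165 and 156 CPM. The single-stranded RNA sensors Tlr7 (229 to 22.1 and 30.9 CPM) and Tlr8 (533 to 84.2 and 74.4 CPM) fell, and Tlr4, the LPS receptor, was low throughout, at 1.30 CPM in M-CSF, 2.81 in CAM and 1.204 and 1.41 with the peptide.

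Antimicrobial effectors rose in 12 of 17 cases and fell in 2, or in 1 with DESeq2. Slc11a1 (NRAMP1), which pumps metal ions out of phagosomes, had 489 CPM in M-CSF, 766 in CAM and 1684 and 1607 with the peptide, and Marco, a scavenger receptor for bacteria, 1.04, 589, 208 and 158 CPM. Lyz2, the macrophage lysozyme, fell from 20859 CPM in M-CSF to 2837 and 2369.5 (adjusted p = 4.61e-07; CAM 4554 CPM). In the prostaglandin and leukotriene list 4 of 14 rose and 3 fell. Ptges, the inducible prostaglandin E synthase downstream of COX-2, had 2.01 CPM in M-CSF, 94.5 in CAM and 151 and 154 with the peptide, above CAM although Ptgs2 was below it. Pla2g4a, the phospholipase that releases arachidonic acid, had 0.648, 34.0, 16.7 and 17.2 CPM. Hpgds, which makes prostaglandin D2 (423 to 95.001 and 111 CPM), and Tbxas1, the thromboxane synthase (145 to 63.4 and 77.1 CPM), fell together with Ptgs1.

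Genes that CAM had changed strongly but that stood near M-CSF with the peptide are given as a description, since M-CSF values chose them. Of 245 genes at least 8-fold higher in CAM than in M-CSF with at least 50 CPM in CAM, the 6 nearest to M-CSF with the peptide were Actg1, Ccl3, Gk, Rab11fip1, Ctsc and Pstpip2. Actg1, cytoplasmic γ-actin, had 2.40 CPM in M-CSF, 55.6 in CAM and 2.32 and 2.24 with the peptide, low levels for a gene that most cells use. Gk, glycerol kinase, had 9.46, 121, 15.7 and 19.0 CPM, and Ctsc, the protease that activates granule proteases, 135, 1157, 321 and 356 CPM. Only Actg1 and Ccl3 among these 6 lay within 1.5-fold of M-CSF in both peptide libraries. Of 133 genes at least 8-fold lower in CAM with at least 50 CPM in M-CSF, those nearest to M-CSF included Folr2, Cd300c2, Gsg1l, Rasa3 and Plekhg3. Folr2, a folate receptor of tissue macrophages, had 76.6 CPM in M-CSF, 8.12 in CAM and 74.9 and 65.3 with the peptide. Cd300c2, an activating immunoglobulin-like receptor, had 182, 16.9, 113 and 98.6 CPM. With rescaling for composition Folr2 was thus at the M-CSF level, but on library size alone it passed the threshold as lower than M-CSF. Cd300c2, Gsg1l, Rasa3 and Plekhg3 stood between CAM and M-CSF at 1.72-fold to 2.15-fold below M-CSF.

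**Figure D4:**
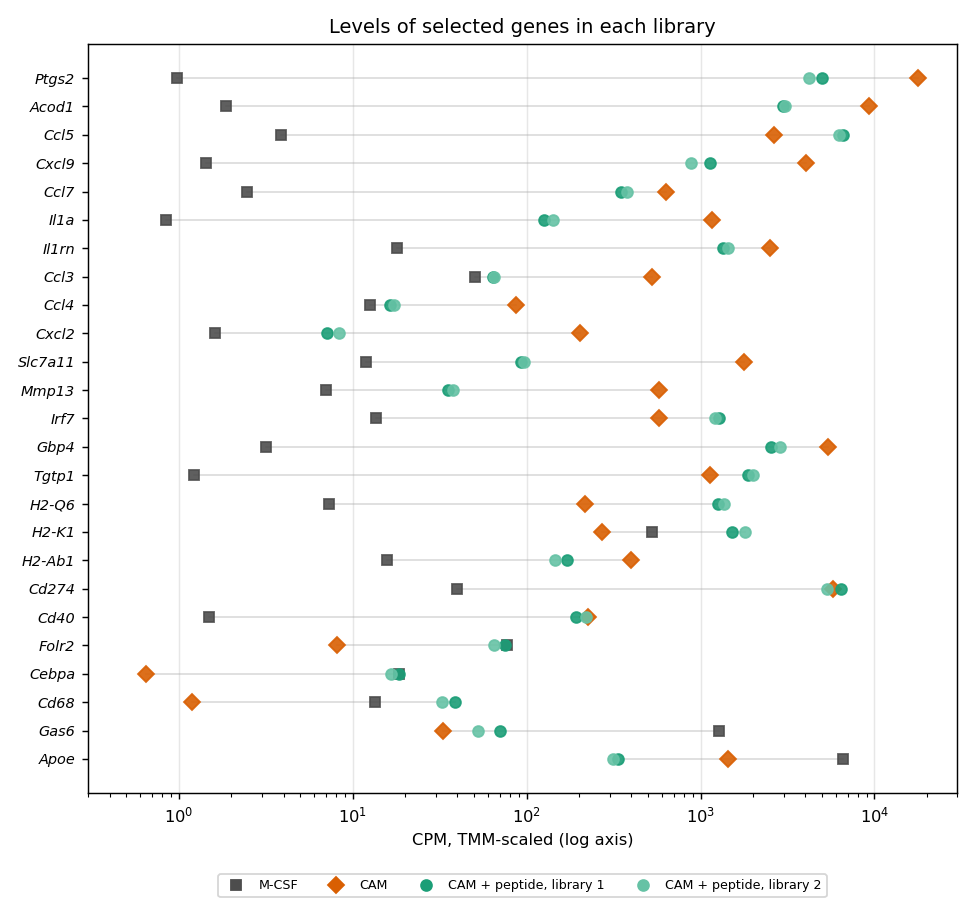
CPM (horizontal, log axis) of genes named in the text, one row per gene, with a square for M-CSF, a diamond for CAM and circles for the peptide libraries. Ccl3, Ccl4, Folr2 and Cebpa have peptide circles beside the M-CSF square. Ccl5, Irf7 and the class I genes have them to the right of both M-CSF and CAM. Cxcl2, Slc7a11 and Mmp13 have them between M-CSF and CAM.

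Other genes changed with the peptide although CAM lay within 1.2-fold of M-CSF, a condition met by 505 genes. Ddx24, an RNA helicase, had 11.8 CPM in M-CSF, 11.04 in CAM and 66.7 and 72.9 with the peptide (log2 fold change 2.56, SE 0.220, adjusted p = 7.37e-07). Hyal1, the lysosomal hyaluronidase, had 17.6, 20.5, 102 and 77.5 CPM, and P2ry2, a receptor for extracellular ATP and UTP, 10.6, 10.7, 50.1 and 44.7 CPM. Dnaaf3 and Praf2 rose by log2 2.41 and 2.27. Downward, mt-Atp8 (28.7, 27.7, 1.81 and 1.66 CPM), the Golgi protein Golim4 (18.1, 20.9, 1.204 and 1.33 CPM), Zfp658, the kinetochore protein Cenpf (11.5, 10.9, 1.204 and 1.33 CPM) and Mfge8, which bridges dying cells to phagocytes (20.8, 17.4, 2.41 and 2.74 CPM), fell by log2 4.04, 3.82, 3.29, 3.17 and 3.01. The nearness of CAM to M-CSF in these 10 genes was part of how they were chosen.

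Glycolysis and hypoxia-response genes rose in 26 of 27 cases, with none lower and a median log2 fold change of 2.78. Slc2a1 (GLUT1), the main glucose importer of activated macrophages, had 24.6 CPM in M-CSF, 747 in CAM and 536 and 486 with the peptide (log2 fold change 4.38, adjusted p = 5.34e-09). Hk3, a hexokinase of myeloid cells, had 34.5, 323, 932 and 950.2 CPM and exceeded CAM by 1.54 log2 units (adjusted p = 5.56e-05). Egln3, an oxygen-sensing hydroxylase that HIF-1 induces, had 0.453, 65.2, 39.2 and 29.9 CPM and Adm, the peptide hormone adrenomedullin, 0.453, 61.9, 16.4 and 9.39 CPM. Ndrg1 was the member that did not pass, at 2.07, 16.1, 2.32 and 5.07 CPM (adjusted p = 0.198). The citric acid cycle was mixed: 9 of 21 enzymes rose and 4 fell with a median of 0.14, but on library size alone 2 rose and 8 fell with a median of -0.25, and with DESeq2 5 rose and 4 fell. Ogdh and Sdhd were higher (21.0 to 75.1 and 53.2 CPM, and 50.1 to 131 and 107 CPM), and Idh2 (47.0 to 9.03 and 8.06 CPM), Suclg2 (19.6 to 2.67 and 2.41 CPM) and Fh1 (10.6 to 0.774 and 0.415 CPM) were lower. Nuclear-encoded respiratory chain subunits likewise moved little: 8 of 27 rose and none fell (median 0.17), and on library size alone 3 rose and 5 fell (median -0.22); with DESeq2 3 rose and none fell.

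All 13 protein-coding genes of the mitochondrial genome fell, with a median log2 fold change of -3.58, and all 13 also fell on library size alone; with DESeq2 and with no filter on low counts 12 of 13 did. The steepest were mt-Nd3, a complex I subunit, with 263 CPM in M-CSF, 29.3 in CAM and 4.38 and 3.91 with the peptide (log2 fold change -5.98, SE 0.190, adjusted p = 4.66e-10), and mt-Cytb, of complex III, with 4195, 919.7, 241 and 199 CPM (log2 fold change -4.25, adjusted p = 2.77e-09). The shallowest was mt-Co1, of complex IV, at 16097, 8073, 10656 and 7027 CPM (log2 fold change -0.86, adjusted p = 0.0284). It was also the one member that did not differ from CAM (log2 difference 0.13, adjusted p = 0.757); the other 12 were lower than in CAM. Mitochondrially encoded genes took 6.08% of all M-CSF counts, 1.63% in CAM, 1.32% in peptide library 1 and 1.01% in peptide library 2. Another share that differed among libraries was that of the gene pair Lars2 and Gm15662, at 6.40%, 14.1%, 10.5% and 7.79% of counts; its part in the values above was not tested.

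**Figure D5:**
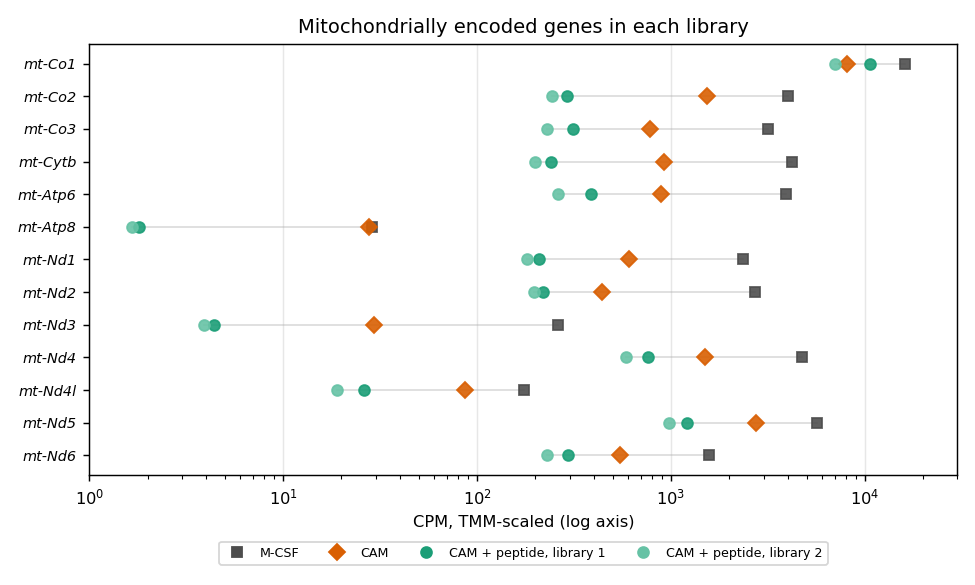
CPM (horizontal, log axis) of the 13 mitochondrially encoded protein genes, with a square for M-CSF, a diamond for CAM and circles for the peptide libraries. Every gene has its M-CSF square to the right of both circles, and mt-Atp8 has M-CSF and CAM together at 28.7 and 27.7 CPM.

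Of 26 tested oxidative stress genes 21 rose and 4 fell. Hmox1, haem oxygenase, had 331 CPM in M-CSF, 3156 in CAM and 4609 and 3507 with the peptide, and Fth1, the ferritin heavy chain, 6597, 18362, 42862 and 34652 CPM (log2 fold change 2.55, adjusted p = 6.65e-05). Ftl1, the ferritin light chain, went the other way, from 213 CPM to 49.4 and 52.4, although ferritin genes have many near-identical pseudogene copies that can take reads. Slc7a11, the cystine importer, had 11.9, 1770.4, 92.2 and 96.8 CPM, above M-CSF by log2 2.99 (adjusted p = 1.30e-07) and 4.23 log2 units below CAM (adjusted p = 1.30e-08). Sod2, the mitochondrial superoxide dismutase that NF-kB induces, went from 38.9 to 764 and 707 CPM, whereas cytosolic Sod1 fell from 84.9 to 40.8 and 30.3 and catalase (Cat) from 809 to 342 and 274. Among 13 heat shock genes 9 rose and 1 fell, a fall that was lost with DESeq2. Hspa1a, the inducible HSP70, had 0.777, 212, 385 and 220.4 CPM and Hspa1b, its near-identical copy, 1.23, 163, 276 and 145 CPM. The unfolded protein and integrated stress list was divided, 7 of 19 rising and 3 falling (6 and 7 on library size alone, 6 and 1 with DESeq2), with Atf4 going from 44.2 to 319 and 273 CPM and Herpud1 from 62.3 to 23.5 and 20.3.

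Genes of macrophage identity and of the resting state mostly fell. In the identity list 13 of 23 fell and 7 rose, with a median log2 fold change of -0.73. Csf1r, the receptor for M-CSF, had 399 CPM in M-CSF, 65.4 in CAM and 29.8 and 41.1 with the peptide (log2 fold change -3.49, SE 0.189, adjusted p = 9.51e-09). Cx3cr1, the fractalkine receptor, had 25.8, 34.3, 1.46 and 2.33 CPM and was low with the peptide alone (log2 difference from CAM -4.17, adjusted p = 1.52e-06). Cebpa, a transcription factor of the myeloid lineage, had 18.3, 0.649, 18.6 and 16.7 CPM and Cd68, a lysosomal glycoprotein, 13.4, 1.19, 38.9 and 32.8 CPM, so CAM was the low group for both. In bulk RNA, fewer cells of a type and less RNA per cell cannot be told apart. The alternative activation list had 12 of 20 lower and 6 higher (median -2.02). Clec10a, a galactose-type lectin, had 82.9 CPM in M-CSF, was listed at 0 in CAM and in peptide library 2, and had 0.516 CPM in peptide library 1. The members that rose included Klf4, a transcription factor that IL-4 also induces (7.06, 104, 427 and 471 CPM), Tgm2, a transglutaminase (192, 2949.8, 3334 and 3589 CPM), and Arg1, arginase (0.324, 46.6, 11.005 and 9.14 CPM). Chil3 and Retnla, which mark IL-4-exposed mouse macrophages, were listed at 0 in all 4 libraries.

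Uptake and lipid genes were lower as well. In the efferocytosis list, genes for the clearance of dying cells, 12 of 20 fell and 1 rose (median log2 fold change -1.27). Gas6, the bridging ligand of the receptor Mertk, had 1275 CPM in M-CSF, 32.9 in CAM and 70.5 and 52.7 with the peptide (log2 fold change -4.37, adjusted p = 1.78e-09), while Mertk itself (506, 671, 754 and 632 CPM) did not differ from M-CSF past the threshold (adjusted p = 0.0692). Itgb3, the vitronectin receptor β chain, fell from 47.7 to 4.13 and 3.24 CPM, and Cd300lf rose from 19.6 to 136 and 170.3. Scavenger and lectin receptors fell in 11 of 20 cases and rose in 4, the highest being Clec4e (Mincle), a receptor for mycobacterial glycolipid (8.68, 508, 133 and 198 CPM). Among lipid handling and LXR target genes 11 of 22 fell and 6 rose. Apoe, the main apolipoprotein of macrophages, had 6555 CPM in M-CSF, 1433 in CAM and 335 and 313 with the peptide (log2 fold change -4.34, adjusted p = 2.59e-09; against CAM -2.14, adjusted p = 7.33e-06). Lpin1, a phosphatidate phosphatase, fell from 163 to 18.8 and 11.96 CPM. Acsl1, an acyl-CoA synthetase that LPS induces (7.00 to 134 and 117 CPM), and Nr1h3, the LXRα receptor itself (11.8 to 117 and 115 CPM), rose. Of 17 cholesterol synthesis genes 5 rose and 5 fell; with DESeq2 4 rose and 1 fell, and with no filter on low counts the median turned from -0.12 to 0.16. Ch25h, which makes 25-hydroxycholesterol, went from 0.583 to 20.4 and 23.2 CPM and stood below CAM at 104.

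Lysosomal genes were mixed, 11 of 29 falling and 8 rising (median log2 fold change -0.44). Ctsh, an aminopeptidase-type cathepsin, had 73.8 CPM in M-CSF, 114 in CAM and 663 and 819.5 with the peptide (log2 fold change 3.33, adjusted p = 5.94e-08), and Npc2, which hands cholesterol out of lysosomes, 653, 1170.3, 2887 and 2448 CPM. Hexa, a hexosaminidase, fell from 1731 to 282 and 238 CPM, and Atp6v0d2, a proton pump subunit, from 121 to 8.60 and 3.32. Of 20 complement and Fc receptor genes 10 rose and 6 fell (8 and 8 on library size alone). Cfb, factor B of the alternative pathway, had 4.21, 693, 737 and 801 CPM and the activating IgG receptors Fcgr4 (38.2, 359.8, 657 and 585 CPM) and Fcgr1 (79.2, 415, 736 and 609 CPM) rose. C1qa, of the classical pathway's recognition molecule, had 823, 102, 311 and 227 CPM and fell.

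Ninj1, whose first residues the peptide copies, changed little. It had 40.6 CPM in M-CSF, 44.6 in CAM and 54.6 and 53.5 with the peptide, and the difference from M-CSF missed the threshold (log2 fold change 0.41, SE 0.182, adjusted p = 0.0875). With rescaling for composition the peptide values lay above both other libraries by less than 1.5-fold. On the plain column totals peptide library 1 did not lie above M-CSF. Effectors of lytic and regulated death around it rose in 13 of 20 cases and fell in 3, or in 5 on library size alone. Mlkl, the pore-forming effector of necroptosis, had 6.09, 143, 138 and 129 CPM and Casp1, the inflammasome protease, 46.0, 348, 422 and 411 CPM. Gsdmd, the pore-forming substrate of that protease, had 70.0, 73.2, 294 and 274 CPM, with CAM at the M-CSF level and the peptide libraries above both (log2 difference from CAM 1.96, adjusted p = 8.35e-06). Ripk3, the kinase that activates Mlkl, was listed at 0 in M-CSF and had 0.649 CPM in CAM and 8.25 and 13.2 with the peptide. Pycard, the inflammasome adaptor (54.2 to 24.8 and 24.1 CPM), Ripk1 (107 to 46.2 and 56.7 CPM) and the ATP-gated channel P2rx7 (241 to 60.0 and 80.7 CPM) fell. Nlrp3, the inflammasome sensor, had 103, 548, 146 and 152 CPM, a log2 fold change of 0.53 over M-CSF (adjusted p = 0.0220) and -1.88 against CAM (adjusted p = 3.97e-06).

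Of 29 matrix and adhesion genes 16 rose and 6 fell. Mmp14, a membrane-bound collagenase, had 12.8 CPM in M-CSF, 443 in CAM and 248 and 216 with the peptide, whereas the collagenase Mmp13 had 7.00, 575, 35.5 and 37.8 CPM, 2.39 log2 units above M-CSF and 3.97 below CAM. Timp2, a metalloproteinase inhibitor (671 to 34.7 and 27.8 CPM), Mmp12, the macrophage elastase (198 to 29.5 and 33.4 CPM), and the integrin Itga4 (625 to 64.9 and 64.1 CPM) fell. Of 30 cell cycle genes 9 rose and 6 fell; 7 rose and 9 fell on library size alone, 7 and 0 with DESeq2, and 9 and 3 with no filter on low counts. Cdkn1a (p21), an inhibitor of cell division, went from 235 to 2140.1 and 1795 CPM and the G1 cyclins Ccnd1 and Ccne1 from 38.5 to 369 and 280.4 CPM and from 0.713 to 80.7 and 60.9 CPM. The proliferation marker Mki67 went from 85.7 to 64.3 and 51.3 CPM (log2 fold change -0.57, adjusted p = 0.0208), a call that was lost with DESeq2, with no filter on low counts and with the offset for gene length and GC content.

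Genes that most cells express also moved, 13 of 30 rising and 7 falling, which on library size alone became 10 and 12. The list's median log2 fold change was 0.32, and -0.07 on library size alone. Members that fell included the ribosomal protein genes Rpl4 (393 to 204 and 168 CPM) and Rps18 (215 to 49.7 and 41.3 CPM). Markers of other cell types had mixed levels. With the peptide Csf3r stood above the macrophage gene Csf1r, and in M-CSF Ighm stood above Adgre1. Summed over the B cell list, CPM was 114 in M-CSF, 2.49 in CAM and 2.75 and 2.91 with the peptide. Ighm, the immunoglobulin μ chain, stood at 110.3, 0.108, 0.0860 and 0.499 CPM and made up most of the sum in M-CSF alone; Cd79b and Pax5 were at 0 in both peptide libraries. The T and NK cell list summed to 19.8, 11.7, 7.22 and 7.56 CPM and the dendritic cell list to 16.7, 77.7, 22.6 and 27.5 CPM. The neutrophil list summed to 189.9, 103, 269.8 and 279.7 CPM, of which Csf3r, the G-CSF receptor that monocytes also carry, made up 169, 70.0, 254 and 260.2. Platelet markers summed to 88.6, 9.20, 18.7 and 20.1 CPM; Pf4, which macrophages also make, made up 74.2, 2.06, 11.8 and 8.64 of these. The fibroblast and endothelial list summed to 124, 156, 168 and 197.8 CPM, led by Vwf, Kdr and Pecam1. What part cells other than macrophages had in the results was not tested.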

How the data were processed

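Estimated counts per gene in 4 libraries were deposited by the authors; per the submitters' processing notes kallisto, StringTie and genome build mm10 were used, with no role or order stated, and the strand setting is not given in the sources used here. The libraries were made with a directional mRNA kit, per the labels. The estimated counts were rounded to whole numbers, and 0 per-sample columns were left unused. Genes passing edgeR's filterByExpr were fitted with TMM scaling and 3 groups (edgeR 4.0.16, limma 3.58.1, R 4.3.3), and quasi-likelihood F tests were adjusted by Benjamini-Hochberg over all 14104 tested genes at 0.05. Printed levels are CPM on the TMM-adjusted library size; intervals of ratios are 95% and, like the 3-count bound, cover counting error only. DESeq2 1.42.0, library size alone, no filter, a fit without CAM, an offset for length and GC content, and leaving out each peptide library were alternatives.

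The compared libraries and the gene lists were chosen with earlier results of these data known. Genes were named by rule: the markers and Ninj1; the 10 largest changes each way; the 5 highest genes listed at 0 in the other group; up to 3 members of each list each way, and activation genes nearest to M-CSF; the 6 strongly CAM-changed genes nearest to M-CSF each way; and the 5 largest changes each way among genes within 1.2-fold in CAM. Further list members were named after their values were seen. Some genes that the rule names are not reported here.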

Additional observations from a re-analysis of the deposited data

How the results depend on the processing

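With DESeq2, 3252 genes differed from M-CSF, 2108 higher and 1144 lower. On library size alone 2065 were higher and 4153 lower, and 4281 lay at least 2-fold lower. Without a filter on low counts 9125 genes lay at least 2-fold apart, 4456 higher and 4669 lower, of more genes tested; for the others the cause was not tested. Leaving out 1 peptide library gave 5355 to 5876 genes at least 2-fold apart, 2589 to 2701 higher and 2766 to 3175 lower, as values with no test. No paired analysis was possible because the block on the column numbers leaves no residual degrees of freedom. With that block the contrast sets peptide library 2 alone against M-CSF. It therefore repeats the counts without peptide library 1 (5355 genes at least 2-fold apart, 2589 higher and 2766 lower) and is no further check. Of 188 genes recomputed, 14 lost their call under at least 1 alternative (21 losses, 12 of them with DESeq2): Cdk4, Clec10a, Csf3r, Dhcr7, Dlst, Ern1, Gk, Hspe1, Irak4, Klf2, Mki67, Scd2, Sqle and Vwf. Folr2 passed the threshold on library size alone, and 0 genes reversed. Without peptide library 2, 8 genes moved by more than the larger of the spread between replicates and the standard error: Cd300c2, F13a1, Hexa, Rasa3, Rpl4, Rps18, Sdhd and mt-Cytb. Without peptide library 1 the same held for Clec10a, which is listed at 0 in library 2. Before rescaling, leaving out 1 of 2 libraries moves the mean of most genes by less than that spread. Few genes could pass this limit, so it is no check of the genes that did not move. Depth limits genes with few counts in the single M-CSF library.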
